A study of Mus musculus with 84 samples.

Results

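The comparison described here is how far the response of the mouse liver to the dioxin TCDD depended on the line of mouse among 3 recombinant inbred lines of one cross. It used all 18 libraries of BXD91/2RwwJ, BXD100/RwwJ and BXD-40/TyJ, of 84 liver RNA-seq libraries of 14 strains in the study, and took the mean TCDD-minus-vehicle change of BXD91/2RwwJ and BXD100/RwwJ minus that of BXD-40/TyJ. In each line 3 libraries were from mice given TCDD by mouth in peanut butter at 0.1 µg/kg on each of 10 days, and 3 were from mice given the peanut butter alone. All were labelled as pregnant females of 6 to 8 weeks at the start and 7 to 9 weeks at the end. BXD lines descend from C57BL/6J and DBA/2J, and each is inbred, so that mice of a line share 1 mosaic of the parental genomes. The parental strains carry alleles of the aryl hydrocarbon receptor (AHR) that bind dioxin with different affinity. The labels do not give the allele that each line carries. No label says whether the libraries of a group were separate mice, so that the spread between them may in part be technical. The comparison was made with and without 1 vehicle library of BXD-40/TyJ, called vehicle replicate 1, whose title number a TCDD library of BXD100/RwwJ also carries. Title numbers also recur between other strains of the study.

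AHR waits in the cytoplasm in a complex with the chaperone HSP90 and p23. When TCDD binds, it enters the nucleus, pairs with ARNT and switches on genes that hold its DNA element. In liver the best known of these encode the cytochromes P450 of the CYP1 family, conjugating enzymes and the feedback regulators TIPARP and AHRR. TCDD is broken down slowly, so the receptor stays engaged through repeated dosing.

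Promoter sequences of 4 genes that the comparison turned on are shown for the reader to see what lies directly before their starts. They are the 250 bases before the transcription start from RefSeq on build GRCm38.p6, not the build named for the counts, read 5′ to 3′ on the strand of the gene, and capitals mark each GCGTG, the core letters of the AHR element, or CACGC, the same letters on the other strand. Cyp1a1 lies at chr9:57697363-57697612 on the plus strand, Cyp1a2 at chr9:57683656-57683905 on the minus strand, Htatip2 at chr7:49758856-49759105 on the plus strand and Slc46a3 at chr5:147894816-147895065 on the minus strand.
Cyp1a1: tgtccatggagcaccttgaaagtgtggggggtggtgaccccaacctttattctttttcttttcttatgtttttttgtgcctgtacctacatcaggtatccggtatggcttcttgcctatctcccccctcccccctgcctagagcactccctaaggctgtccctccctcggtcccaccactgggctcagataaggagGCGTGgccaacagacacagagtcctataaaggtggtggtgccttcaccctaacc
Cyp1a2: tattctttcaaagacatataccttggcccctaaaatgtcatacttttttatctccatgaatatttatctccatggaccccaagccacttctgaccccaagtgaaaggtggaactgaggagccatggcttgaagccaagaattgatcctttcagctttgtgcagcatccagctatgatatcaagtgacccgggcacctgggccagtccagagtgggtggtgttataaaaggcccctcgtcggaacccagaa
Htatip2: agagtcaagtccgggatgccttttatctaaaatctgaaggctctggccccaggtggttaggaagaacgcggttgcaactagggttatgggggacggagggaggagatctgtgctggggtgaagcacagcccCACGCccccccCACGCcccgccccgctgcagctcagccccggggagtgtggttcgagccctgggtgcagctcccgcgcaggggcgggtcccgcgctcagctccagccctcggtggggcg
Slc46a3: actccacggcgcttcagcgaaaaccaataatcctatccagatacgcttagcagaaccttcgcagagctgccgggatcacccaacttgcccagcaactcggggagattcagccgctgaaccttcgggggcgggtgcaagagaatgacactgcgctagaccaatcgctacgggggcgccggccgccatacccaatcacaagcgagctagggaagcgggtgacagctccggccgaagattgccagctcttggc
The Cyp1a1 window held 1 match, its first base at -54 from the start, and the Htatip2 window 2, at -119 and -108. For a gene with more than 1 listed start, such as Htatip2 with 2, only the first listed was searched. No match was found in the windows of Cyp1a2 or Slc46a3. Of all 27025 genes with a window, 28.2% held at least 1 match on either strand. Of the 9 genes called in the comparison 6 had a window and 3 of these held a match; of 15 genes of the AHR battery list 12 had a window and 6 held one. A match is only a run of letters, and elements outside these 250 bases were not searched.

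The 18 libraries held 13074091 to 17970601 counts assigned to genes, with a median of 16040870. Levels are given as CPM, the count of a gene scaled to the summed gene counts of its library and not to its length. Against the labels of female liver, albumin stood at 51180 to 82820 CPM, Xist was present in each library at up to 553.9 CPM, and 4 Y-linked genes summed to at most 0.0688 CPM. In 18 of 18 libraries the most similar other library was of the same line. A pair of libraries stood far apart in markers of other tissues. BXD-40/TyJ vehicle replicate 1 had adrenal cortex markers at a summed 668.5 CPM against 8.87 to 26.5 in the other 17, adrenal medulla markers at 107.5 against at most 0.303, adipose markers at 200.6 against at most 9.92 and neutrophil markers at 27.9 CPM against at most 7.58. BXD91/2RwwJ TCDD replicate 2 had skeletal muscle markers at 506.1 CPM against at most 3.98 elsewhere. In BXD-40/TyJ the base composition of the counted RNA also moved with treatment: the slope of the level on GC content was -0.16 to -0.04 log2 units per 10 points with vehicle but 0.20 to 0.32 with TCDD, without overlap. The nuclear RNAs Malat1, Neat1 and Xist summed to 1132 to 1655 CPM with vehicle in that line, against 503.2 to 848.8 with TCDD. In the other lines slopes and sums of vehicle and TCDD libraries overlapped. Single libraries there were like those of BXD-40/TyJ with TCDD. BXD91/2RwwJ vehicle replicate 2 had a slope of 0.20 and a sum of 484.1 CPM, and BXD100/RwwJ TCDD replicate 3 had 0.22 and 638.5 CPM. A GC-adjusted fit was therefore also made, in which each library's dependence on GC and transcript length was removed. It is stated whether called genes passed in it, with values for some genes, chiefly where they moved most.

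**Figure D1:**
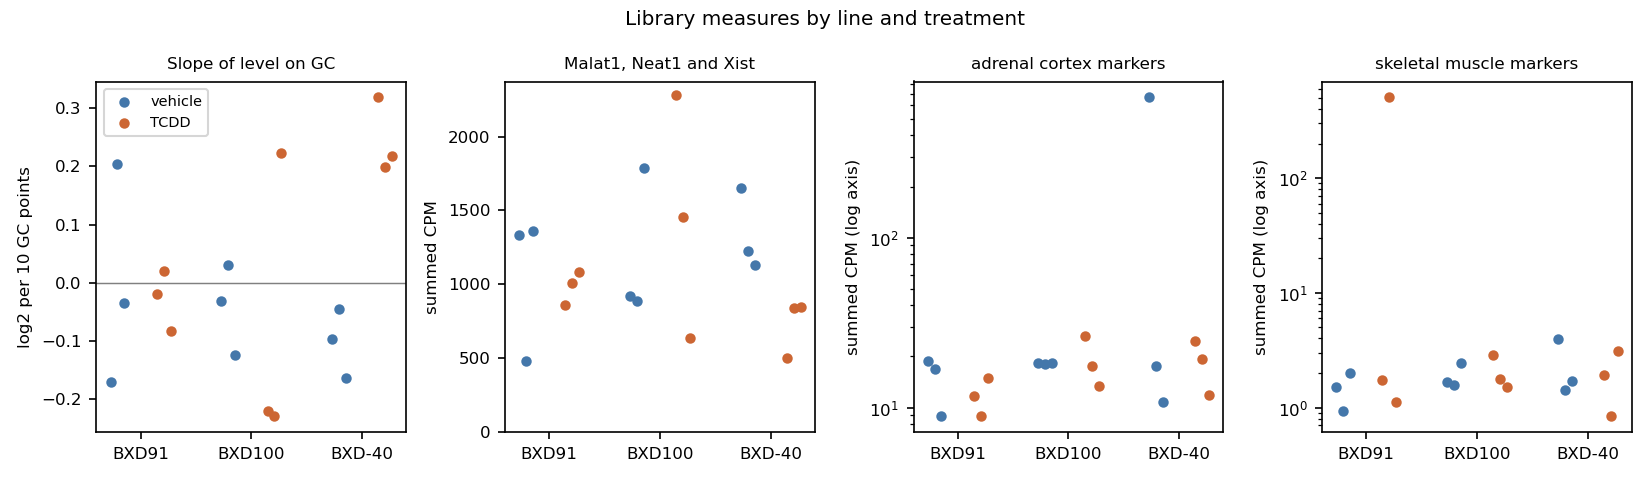
Library measures by line and treatment, 1 point per library. From left: slope of log2 level on GC content (log2 per 10 points), summed CPM of Malat1, Neat1 and Xist, and summed CPM of adrenal cortex and skeletal muscle markers on log axes; the GC slopes of the BXD-40/TyJ TCDD libraries (0.20 to 0.32) lie above those of its vehicle libraries, and 1 library each stands out for adrenal (668.5 CPM) and muscle (506.1 CPM) markers.

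TCDD raised 3 genes of the AHR battery list, Cyp1a1, Cyp1a2 and Htatip2, more in BXD91/2RwwJ and BXD100/RwwJ than in BXD-40/TyJ. The other tested genes of that list did not pass the test. Of 14972 genes tested with all 18 libraries, edgeR's quasi-likelihood test called 9 at a Benjamini-Hochberg adjusted p below 0.05, which is 0.0601% of the genes: 6 had the higher change in BXD91/2RwwJ and BXD100/RwwJ (0.0401%) and 3 the lower (0.0200%). The 6 were Cyp1a1, Cyp1a2, Nptx1, Slc46a3, Htatip2 and Cd36, and the 3 were Sdf2l1, H2afx and A730015C16Rik. Without BXD-40/TyJ vehicle replicate 1 the test called 7 of 15244 genes (0.0459%): the same 6 and Sdf2l1. The GC-adjusted fit called 8 of 14395 genes, all higher in the first 2 lines (0.0556%); among them were Cyp1a1, Cyp1a2, Nptx1, Slc46a3 and Htatip2, but none of the 3 lower genes. Median-ratio scaling called 20, of which 11 were higher and 9 lower.

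Cyp1a1, whose enzyme oxidises aromatic hydrocarbons, was close to silent without TCDD in all 3 lines. Vehicle libraries held 0.505, 0.411 and 1.27 CPM in BXD91/2RwwJ, 1.74, 0.825 and 1.03 CPM in BXD100/RwwJ and 0.612, 1.12 and 0.683 CPM in BXD-40/TyJ, from 7 to 24 counts each. With TCDD it stood at 1478, 1660 and 1901 CPM in BXD91/2RwwJ and at 1245, 1273 and 1495 CPM in BXD100/RwwJ, but at 2.75, 1.88 and 1.60 CPM in BXD-40/TyJ. The treated libraries lay above the vehicle libraries in each line, and only in BXD-40/TyJ did they stay below 3 CPM. For BXD91/2RwwJ the ratio of mean CPM was 2305, for BXD100/RwwJ 1117 and for BXD-40/TyJ 2.58. The difference in effect was 9.36 ± 0.55 on the log2 scale (± SE, 18 libraries, adjusted p = 1.05e-08, edgeR), with a 95% interval of 8.22 to 10.50. Each line set against BXD-40/TyJ gave 9.89 and 8.82, 2 values that share the BXD-40/TyJ libraries. The change within BXD-40/TyJ, 1.32 ± 0.36, did not pass the test (adjusted p = 0.0989, edgeR).

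Cyp1a2, the neighbour of Cyp1a1 and a P450 that normal liver makes in quantity, showed the same order from a high starting level. Its vehicle libraries held 494, 773.4 and 476.2 CPM in BXD91/2RwwJ, 558.6, 411.8 and 432.6 in BXD100/RwwJ and 480, 509.1 and 502.3 in BXD-40/TyJ. Its TCDD libraries held 8665, 10820 and 10470 CPM in BXD91/2RwwJ, 6605, 7445 and 7618 in BXD100/RwwJ and 1197, 1400 and 1781 in BXD-40/TyJ. Here all TCDD libraries lay above all vehicle libraries, and those of BXD-40/TyJ lay between. Mean CPM rose 17.2-fold, 15.4-fold and 2.94-fold, and the difference was 2.51 ± 0.27 log2 units (adjusted p = 9.28e-05, edgeR). The rise within BXD-40/TyJ was 1.53 ± 0.22 (adjusted p = 0.00811, edgeR); without vehicle replicate 1 it was 1.49 and the adjusted p 0.129, and in the GC-adjusted fit 1.40 and 0.00878.

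**Figure D2:**
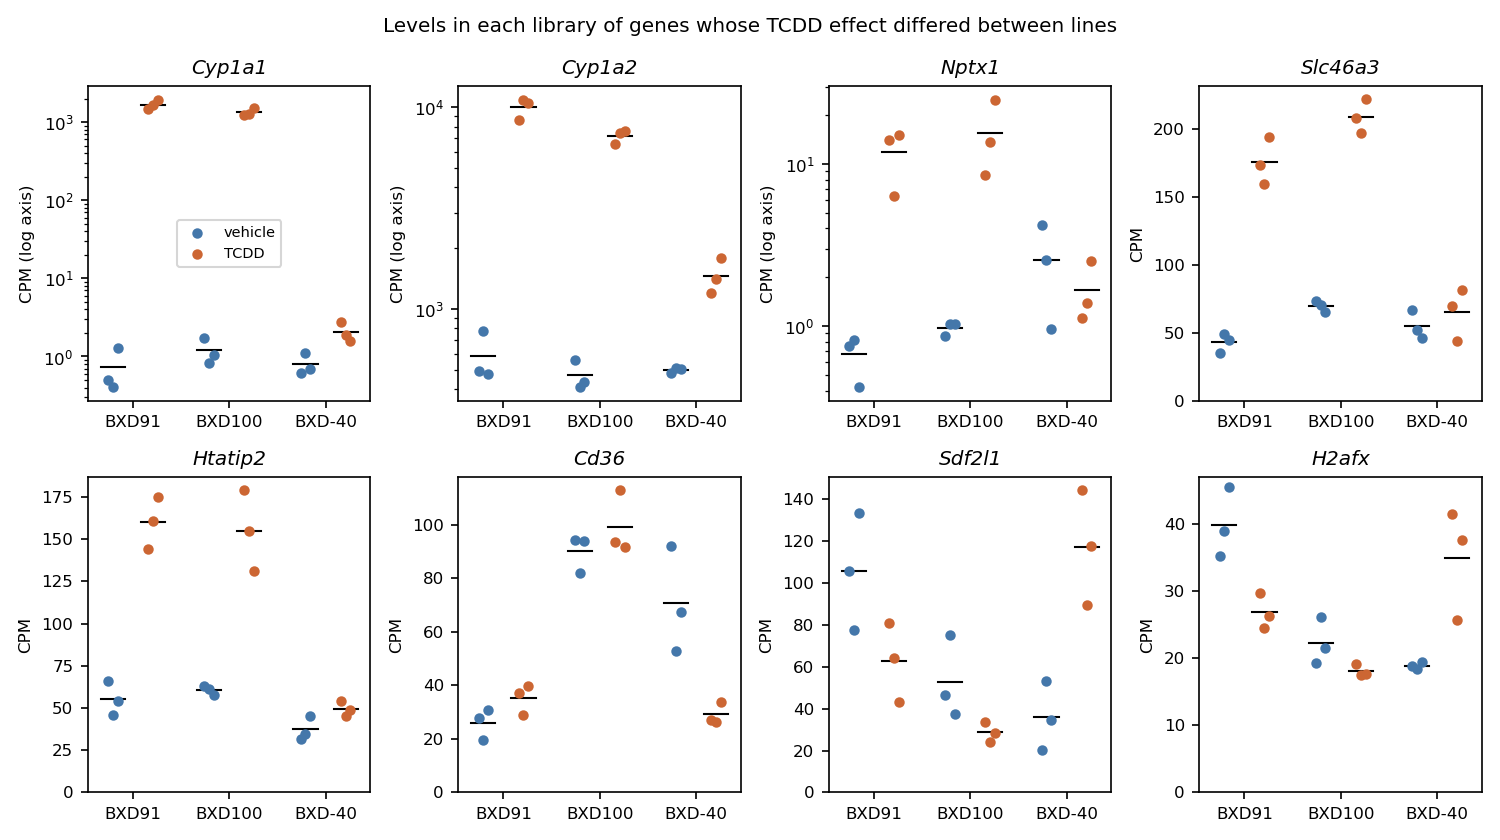
CPM of 8 of the 9 called genes in each of the 18 libraries, vehicle in blue and TCDD in orange, by line; black bars are means of 3 libraries and the axes of Cyp1a1, Cyp1a2 and Nptx1 are logarithmic. Cyp1a1 with TCDD lies at 1245 to 1901 CPM in BXD91/2RwwJ and BXD100/RwwJ and at 1.60 to 2.75 CPM in BXD-40/TyJ.

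Htatip2, which encodes an oxidoreductase, completed the called members of the AHR battery list. TCDD libraries held 144.1 and 160.8 CPM and a still higher value in BXD91/2RwwJ, with a mean of 159.9 ± 15.5 CPM (SD, n = 3), against 66.2, 46.0 and 54.0 with vehicle, and 179.1, 154.8 and 131.2 CPM in BXD100/RwwJ against 62.8, 61.1 and 57.8 in the vehicle libraries. In BXD-40/TyJ they held 54.4, 45.1 and 48.7 CPM against 31.8, 34.8 and 45.5. Treated and vehicle libraries overlapped in BXD-40/TyJ alone, by 1 library each. The difference was 1.09 ± 0.19 log2 units (adjusted p = 0.0244, edgeR), and 1.20 without vehicle replicate 1 (adjusted p = 0.0180). Htatip2 is near the threshold: 8 of the 18 fits that each left out 1 library did not call it, and its change kept its sign in all 18.

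Of 15 genes on the AHR battery list 12 passed the low-count filter and 3 were called, all higher, beside 0.0401% of all genes tested. The untested members were Ahrr, the AHR repressor, with at most 10 counts in a library, the aldehyde dehydrogenase gene Aldh3a1 with at most 1, and Gsta1 with at most 15. Of the 12, 11 had a positive difference and 9 were positive with an unadjusted p below 0.05, beside 7.99% of all genes. Their median difference was 0.87 against 0.03 over all genes tested, 0.68 without vehicle replicate 1 and 0.70 in the GC-adjusted fit; the count of 9 then became 6 and 7. The list was drawn up with results of these data known, so its direction is a description.

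The other battery members did not pass the adjusted test. Cyp1b1, a P450 that liver expresses weakly, gave a difference of 3.41 ± 1.08 (adjusted p = 0.156), from a level of at most 1.45 CPM in any library; without vehicle replicate 1 it was 1.87 and the unadjusted p 0.117. Nqo1, a quinone reductase, gave 0.87 ± 0.32 (0.213), and 0.59 without vehicle replicate 1. The glucuronosyltransferase gene Ugt1a6a gave 0.58 ± 0.17 (0.132) and Ugdh, which makes the glucuronic acid donor, 0.87 ± 0.26 (0.132). In the GC-adjusted fit the last 2 were 0.36 and 0.47. Ugt1a6a stood at 35.9 to 38.1 CPM with TCDD in BXD91/2RwwJ against 19.3 to 26.8 with vehicle, and its libraries overlapped in BXD-40/TyJ alone. Nfe2l2, the master regulator of antioxidant genes, gave 0.76 ± 0.18 (adjusted p = 0.0781) and passed within BXD91/2RwwJ at 0.88 ± 0.15 (0.0157). The call within that line was kept in 13 of the 18 fits that each left out 1 library. Tiparp gave 1.15 ± 0.45 (0.240); within the lines its changes were 0.17, -0.11 and -1.12, and its levels in BXD-40/TyJ were 2.88 to 3.62 CPM with TCDD and 5.09 to 11.2 with vehicle. Without vehicle replicate 1 the Tiparp difference was 0.71 and its change in BXD-40/TyJ -0.68, and in the GC-adjusted fit, at a GC content of 40.4%, they were 0.73 and -0.70. Xdh, xanthine dehydrogenase, gave 0.38 ± 0.20, Ugt1a6b 0.26 ± 0.30 and Ugt1a7c -1.54 ± 1.17; genes of the Ugt1a locus share exons, and their reads may be divided uncertainly.

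No gene of the receptor complex passed the test. Ahr itself was at 16.1 to 51.8 CPM in BXD91/2RwwJ, 26.2 to 39.8 in BXD100/RwwJ and 15.1 to 26.5 CPM in BXD-40/TyJ, and its TCDD and vehicle libraries overlapped in every line. Its difference was 0.22 ± 0.32 (adjusted p = 0.796, edgeR), and 0.016 in the GC-adjusted fit. Its dimer partner Arnt gave 0.26 ± 0.16, the chaperone genes Hsp90aa1 1.01 ± 0.45 and Hsp90ab1 0.03 ± 0.16, and Ptges3, which encodes p23, 0.28 ± 0.21, none past the threshold. Of 7 genes listed 6 were tested and 0 called by edgeR, 1 positive with an unadjusted p below 0.05, beside 7.99% of all genes, and 0 in the GC-adjusted fit. Counts per gene do not show which protein variant of the receptor is made.

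**Figure D3:**
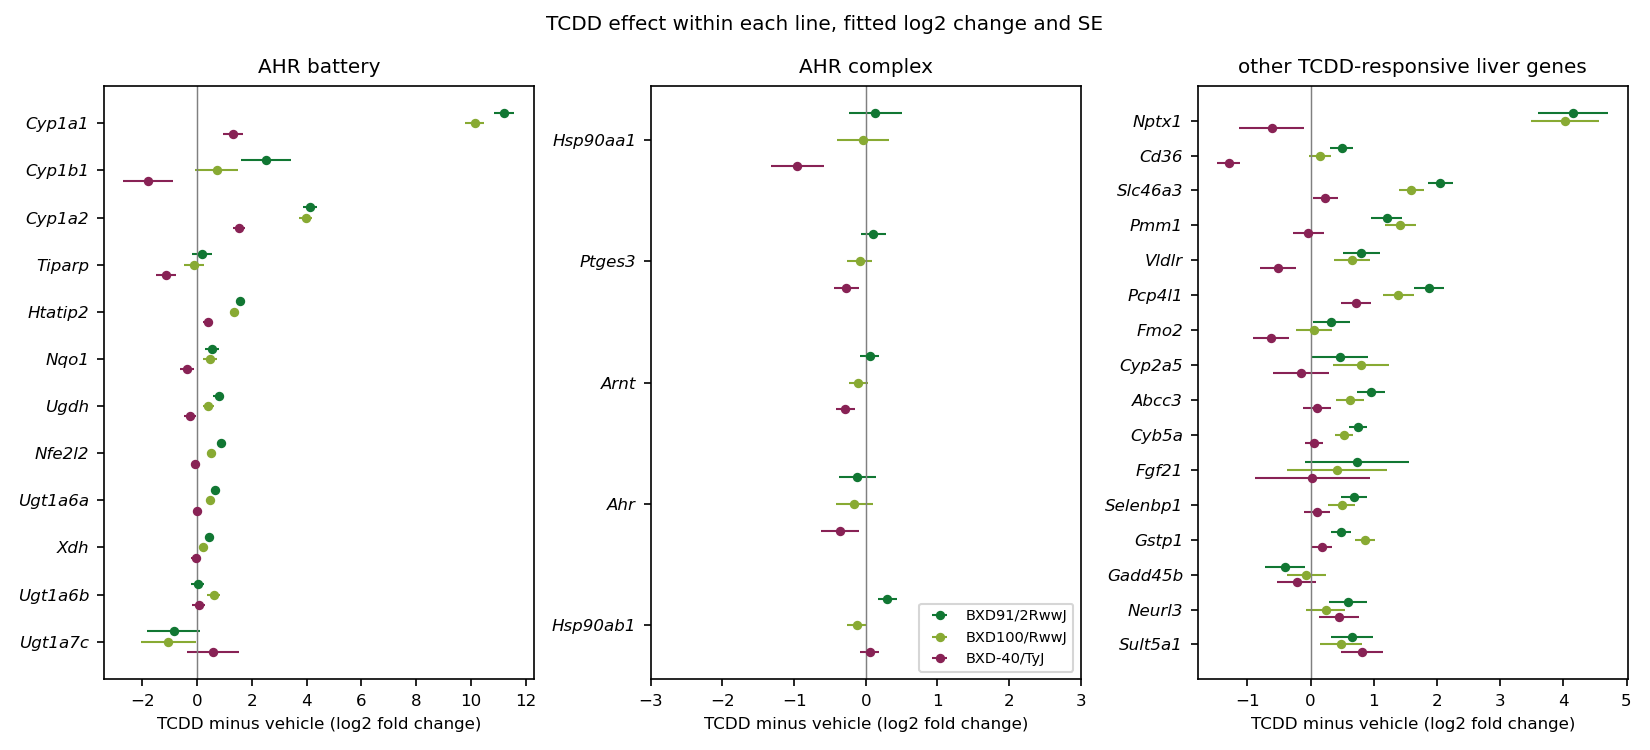
Fitted log2 change with TCDD within BXD91/2RwwJ, BXD100/RwwJ and BXD-40/TyJ (points, with SE) for the named genes of 3 lists, ordered by the difference between lines; the axes differ between lists. Cyp1a1 reaches 11.21 and 10.15 in the first 2 lines and 1.32 in the third, while the genes shown of the AHR complex lie between -0.96 and 0.30.

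Liver genes known to respond to TCDD outside the battery gave 3 further calls of 18 listed and 18 tested, beside 0.0401% of all genes. This list too was drawn up with results of these data known, so the count is a description. Nptx1, which encodes a secreted neuronal pentraxin, went from 0.758, 0.822 and 0.423 CPM with vehicle to 14.0, 6.33 and 15.02 with TCDD in BXD91/2RwwJ. In BXD100/RwwJ it went from 0.868, 1.03 and 1.03 CPM to 8.52, 13.7 and 24.7. In BXD-40/TyJ it was at 4.21, 2.55 and 0.957 CPM with vehicle and 1.13, 1.39 and 2.51 with TCDD, so that the groups overlapped there and in no other line. The difference was 4.71 ± 0.65 (adjusted p = 0.00415, edgeR) and 4.201 without vehicle replicate 1, the library with the highest value (adjusted p = 0.0209).

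Slc46a3, a lysosomal membrane transporter gene, followed the same pattern at a higher level. It rose from 35.5, 49.3 and 44.8 to 173.6, 159.6 and 194.4 CPM in BXD91/2RwwJ and from 73.3, 70.3 and 65.7 to 207.7, 197.1 and 222.2 CPM in BXD100/RwwJ. In BXD-40/TyJ the vehicle libraries held 66.6, 51.9 and 46.1 CPM and the TCDD libraries 69.9, 44.2 and 81.3, overlapping. The difference was 1.60 ± 0.24 (adjusted p = 0.00699, edgeR), with a 95% interval of 1.09 to 2.10.

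Cd36, the fatty acid translocase gene, differed in another way: its level fell in BXD-40/TyJ and passed no test in the other lines. With TCDD it was at 27.2, 26.4 and 33.8 CPM in BXD-40/TyJ against 92.2, 52.9 and 67.3 with vehicle, without overlap, a change of -1.30 ± 0.18 (adjusted p = 0.00811, edgeR). In BXD91/2RwwJ it was at 37.1, 28.8 and 39.9 CPM against 27.9, 19.4 and 30.9, and in BXD100/RwwJ at 93.5, 113 and 91.6 against 94.4, 81.8 and 93.8, overlapping in both. The difference of 1.62 ± 0.22 had an adjusted p of 0.00237 (edgeR). Cd36 is also an adipose gene, and the library with adipose markers held its highest BXD-40/TyJ value; without that library the difference was 1.41 (adjusted p = 0.0114). Its transcript has 38.4% GC against a median of 49.9% over genes tested. In the GC-adjusted fit the difference was 1.18 and no longer passed (adjusted p = 0.0894), and the change within BXD-40/TyJ was -0.83 (0.143).

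The other 15 genes of that list did not pass, and 12 of them had a positive difference. Pmm1, of mannose metabolism, came nearest at 1.35 ± 0.30 (adjusted p = 0.0669, edgeR) and passed in the GC-adjusted fit (1.61, 0.0395). It rose within BXD100/RwwJ by 1.42 ± 0.25 (0.0365), a call kept in 11 of the 18 fits that each left out 1 library. That call was lost without vehicle replicate 1 (0.0508). In BXD-40/TyJ the change of Pmm1 was -0.03 ± 0.25. Vldlr, the very low density lipoprotein receptor gene, gave 1.24 ± 0.35 (0.117), with 1.44 without vehicle replicate 1 and 0.85 in the GC-adjusted fit. Pcp4l1 gave 0.91 ± 0.29 (0.158). Pcp4l1 nevertheless rose within BXD91/2RwwJ by 1.88 ± 0.24 (0.000468) and within BXD100/RwwJ by 1.39 ± 0.25 (0.0383). The latter was called in 6 of the 18 fits that each left out 1 library, and not without BXD-40/TyJ vehicle replicate 1 (0.0502). In BXD-40/TyJ the change of Pcp4l1 was 0.72 (0.143). The electron carrier gene Cyb5a gave 0.59 ± 0.18, the conjugate exporter gene Abcc3 0.69 ± 0.27, the glutathione transferase gene Gstp1 0.49 ± 0.19, Selenbp1 0.49 ± 0.25, the flavin monooxygenase gene Fmo2 0.81 ± 0.35 (0.45 without vehicle replicate 1), and the P450 gene Cyp2a5 0.78 ± 0.54. The hormone gene Fgf21 gave 0.55 ± 1.07. Sult5a1, a sulfotransferase gene, gave -0.24 ± 0.41, Gadd45b -0.01 ± 0.38 and Neurl3 -0.03 ± 0.38; the sign of the last 2 turned in some left-out and GC-adjusted fits.

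The 3 genes lower in the difference had higher levels with TCDD than with vehicle in BXD-40/TyJ. Within that line H2afx and A730015C16Rik passed the edgeR test and Sdf2l1 did not (1.68, adjusted p = 0.0615). Without vehicle replicate 1 neither H2afx nor A730015C16Rik passed within the line (0.235 for both), nor in the GC-adjusted fit (0.143 and 0.0789). The H2afx call was kept in 5 and the A730015C16Rik call in 13 of the 18 fits that each left out 1 library. Sdf2l1, a partner of the chaperone BiP in the endoplasmic reticulum (ER), was at 144.2, 89.3 and 117.5 CPM with TCDD in BXD-40/TyJ against 20.4, 53.1 and 34.5 with vehicle. In BXD91/2RwwJ it was at 81.0, 64.0 and 43.0 CPM against 105.7, 77.7 and 133.5, and in BXD100/RwwJ at 33.6, 23.9 and 28.4 against 46.3, 75.0 and 37.3. The treated libraries lay above in BXD-40/TyJ, below in BXD100/RwwJ, and overlapped with the vehicle libraries in BXD91/2RwwJ. The difference was -2.46 ± 0.41 (adjusted p = 0.0309, edgeR), and -2.17 without vehicle replicate 1 (0.0479). In the GC-adjusted fit it was -2.27 and missed the threshold (0.0581), as it did in 8 of 18 fits that each left out 1 library.

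H2afx, the gene of the histone variant that is phosphorylated at DNA breaks, was at 41.5, 25.6 and 37.5 CPM with TCDD in BXD-40/TyJ and at 18.8, 18.3 and 19.5 with vehicle. In BXD91/2RwwJ it was at 29.8, 24.4 and 26.3 CPM with TCDD against 35.2, 39.0 and 45.5, and in BXD100/RwwJ at 19.1, 17.4 and 17.6 against 19.3, 26.1 and 21.6. Groups did not overlap in any line, and the direction in BXD-40/TyJ was opposite to that in the others. The difference of -1.28 ± 0.20 passed with all libraries (adjusted p = 0.0117, edgeR), but not without vehicle replicate 1 (-1.26, 0.0567) or in the GC-adjusted fit (-0.93, 0.0618). The transcript has 62.3% GC. A730015C16Rik, a Riken clone gene that falls outside the rule for named genes and is given because the call count is small, gave -1.44 ± 0.26 (0.0389); without vehicle replicate 1 or in the GC-adjusted fit it was not called.

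**Figure D4:**
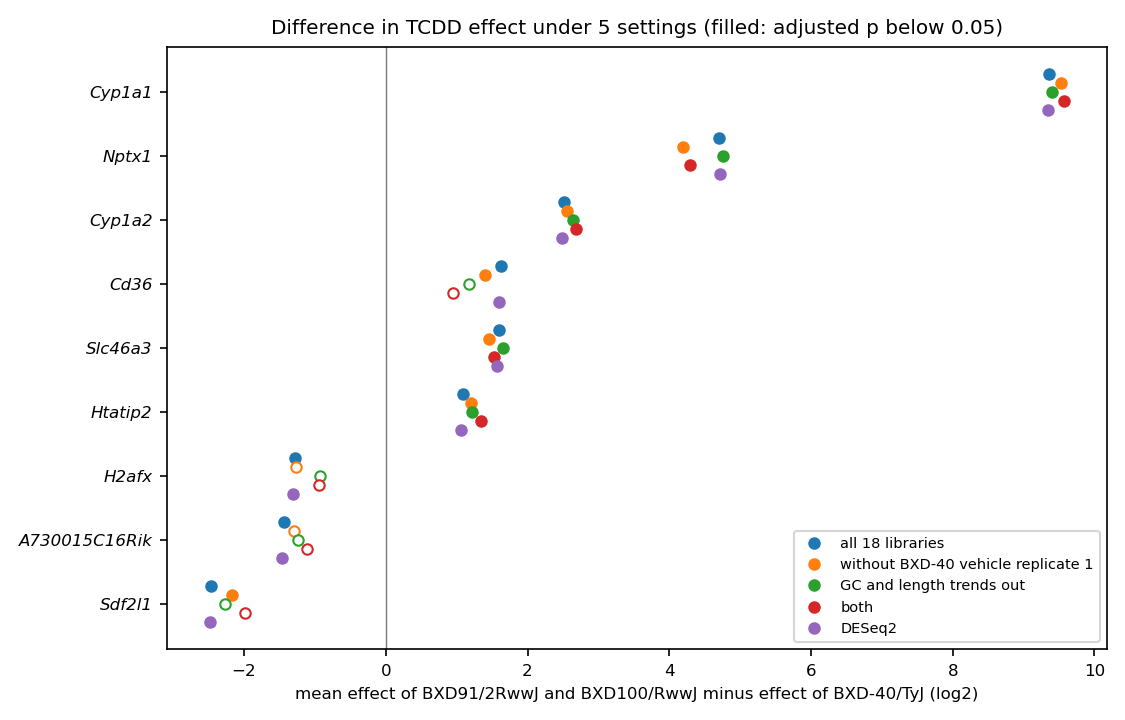
Difference in TCDD effect (mean of BXD91/2RwwJ and BXD100/RwwJ minus BXD-40/TyJ, log2) of the 9 called genes under 5 settings; filled points have an adjusted p below 0.05. Cyp1a1, Cyp1a2, Nptx1, Slc46a3 and Htatip2 are filled under all 5, while Cd36 at 1.18 and the 3 negative genes are open in the GC-adjusted fit.

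Sdf2l1 belonged to a list of 17 genes of ER stress and protein folding, in which most members pointed the same way. Of the 17, all tested, 14 had a negative difference, 1 was called (0.0200% of all genes) and 11 were negative with an unadjusted p below 0.05, beside 7.17% of all genes; none was positive at that level. The median difference was -0.92, against 0.03 over all genes tested, -0.76 without vehicle replicate 1 and -0.90 in the GC-adjusted fit, where 12 and 10 members were negative with an unadjusted p below 0.05. The list was chosen with results of these data known, and its counts include Sdf2l1, so its direction is a description. Pdia6, a disulfide isomerase gene, was at 565.8, 460.4 and 497.7 CPM with TCDD in BXD-40/TyJ against 280.9, 432 and 354.1 with vehicle, and its difference was -0.92 ± 0.21 (adjusted p = 0.0669). Its treated libraries lay above in BXD-40/TyJ and below in both other lines.

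Hspa5, which encodes BiP, was picked after its values were seen, as the chaperone by which this response is best known. It was at 1078, 672.8 and 1110 CPM with TCDD in BXD-40/TyJ against 532.9, 707.9 and 630.5, and at 434.2, 427.5 and 373.7 against 898.4, 798.3 and 504.3 in BXD100/RwwJ. In BXD91/2RwwJ it was at 1029, 624.6 and 459.8 against 1134, 400.9 and 1264, overlapping, as in BXD-40/TyJ; its difference was -1.17 ± 0.41 (0.208). The median change of the 17 genes was 0.49 within BXD-40/TyJ, -0.32 within BXD91/2RwwJ and -0.47 within BXD100/RwwJ, so that both sides entered the difference. The 3 positive members, which did not pass, included the stress-induced factor gene Atf3 at 1.56, the highest, also picked after its value was seen; without vehicle replicate 1 its value was -0.13.

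**Figure D5:**
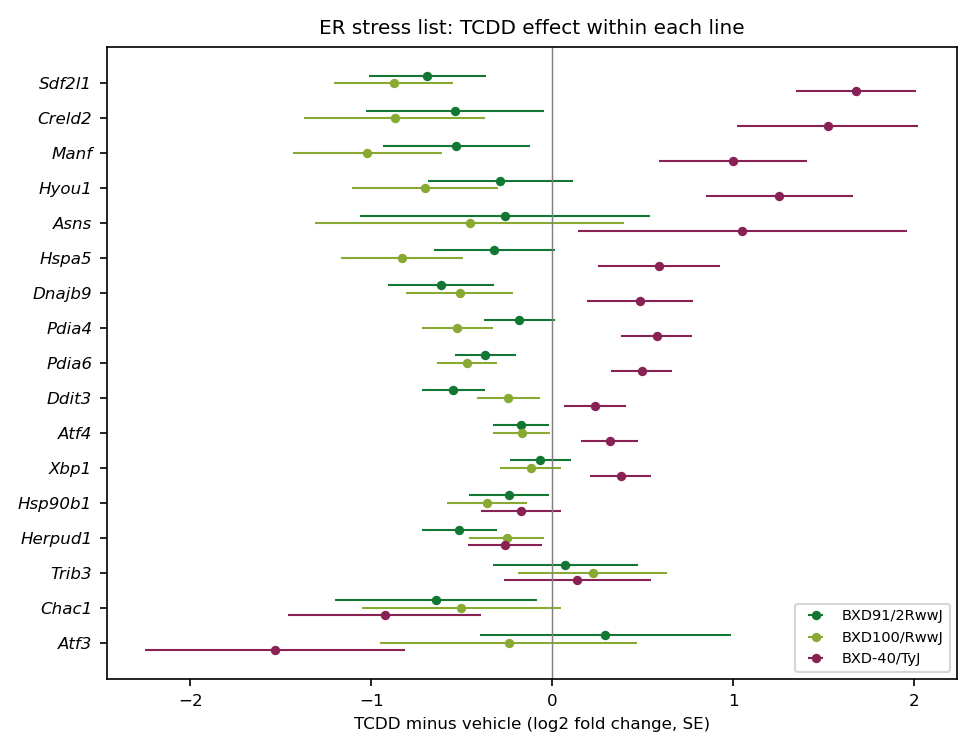
Fitted log2 change with TCDD within each line (points, with SE) for the 17 tested genes of the ER stress list, ordered by the difference between lines. From Sdf2l1 (1.68 in BXD-40/TyJ, -0.69 and -0.88 in the other lines) down to Xbp1, the BXD-40/TyJ points lie to the right of 0 and the others to the left.

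Among other pathways 0 genes were called by edgeR in any list but that of PPARA targets, where the call was Cd36; single values follow for the genes with the smallest p. Over all genes tested 7.99% were positive and 7.17% negative with an unadjusted p below 0.05, the shares to set beside the counts in each list. In the list of targets of the drug receptors CAR and PXR 27 genes were tested, and 5 were positive and 0 negative with an unadjusted p below 0.05, 9 positive without vehicle replicate 1 and 2 in the GC-adjusted fit. Nr1i3, the gene of CAR itself, gave 1.37 ± 0.27 (adjusted p = 0.0529): its libraries with TCDD held 356.4 to 381 CPM in BXD91/2RwwJ against 207.1 to 220.1, and at most 264.3 in BXD-40/TyJ against 244.8 to 362.2, where the groups overlapped. Without strand, its reads cannot be told from any of an overlapping gene. Cyp3a13 gave 0.59 ± 0.17 (0.128), and 0.30 in the GC-adjusted fit. Of 26 tested genes of NRF2 and glutathione, 24 were positive, beside 53.06% of all genes, and 5 at an unadjusted p below 0.05, beside 7.99%, with a median of 0.27. Without vehicle replicate 1 the 5 became 3, with 1 negative, and in the GC-adjusted fit 3. Gclm, of glutathione synthesis, gave 0.53 ± 0.18 (0.187), and 0.11 in the GC-adjusted fit at a GC content of 42.1%.

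The acute phase list had 5 of 24 genes positive with an unadjusted p below 0.05, beside 7.99% of all genes, and 3 without vehicle replicate 1, the library with neutrophil markers. Its median difference was 0.13 with that library and -0.031 without it. Orm3, an orosomucoid gene, fell in BXD-40/TyJ by 1.23 on the log2 scale (adjusted p = 0.0347), a call lost without vehicle replicate 1 (-0.96, 0.235), and its difference was 1.02 ± 0.25 (0.0898). Il1rn, the interleukin 1 receptor antagonist gene, gave 1.78 ± 0.42 (0.0781). The neutrophil-marked library held its highest BXD-40/TyJ value, 14.3 CPM. Without that library the Il1rn difference was 1.49, and in the GC-adjusted fit 1.45. In the interferon list 6 of 26 genes were negative and 1 positive with an unadjusted p below 0.05, beside 7.17% and 7.99% of all genes. Without vehicle replicate 1 the counts were 3 and 0, and in the GC-adjusted fit 4 and 0. Isg15 gave -1.12 ± 0.29 (0.0982) and Rtp4 -0.58 ± 0.21 (0.207).

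Lipid genes other than Cd36 did not pass and gave differences of both signs. Srebf1, the regulator of fatty acid synthesis, gave -1.23 ± 0.33 (adjusted p = 0.114), and Mvd, of cholesterol synthesis, -1.67 ± 0.53 (0.170), while Ppara, the fasting and fibrate receptor gene, gave 1.04 ± 0.28 (0.1102) and its coactivator gene Ppargc1a 1.79 ± 0.51 (0.123). Ppara stood at 65.3 to 79.7 CPM with TCDD in BXD-40/TyJ and at 105.1 to 130.2 with vehicle, without overlap. The bile acid uptake gene Slco1b2 gave 1.10 ± 0.40 (0.218) at a GC content of 38.6%, and 0.66 in the GC-adjusted fit. Of 15 tested genes of fatty acid synthesis 2 were positive and 2 negative with an unadjusted p below 0.05, of 18 of cholesterol synthesis 0 and 2, of 25 PPARA targets 3 and 0, of 21 of bile acid synthesis and transport 2 and 0, of 11 of glucose metabolism 1 and 0, and of 12 of retinoid metabolism 1 and 0, beside 7.99% positive and 7.17% negative over all genes. Without vehicle replicate 1 the pair of counts became 1 and 3 for fatty acid synthesis, 0 and 4 for cholesterol synthesis, 5 and 0 for PPARA targets and 3 and 0 for retinoid metabolism. In the GC-adjusted fit it became 0 and 1 for cholesterol synthesis, 3 and 1 for bile acids and 2 and 0 for glucose metabolism.

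Few genes of the remaining lists stood out. Of 19 clock genes 2 were positive and 1 negative with an unadjusted p below 0.05, among them Nr1d2 at 1.39 ± 0.49 (adjusted p = 0.214) and Hlf at 0.52 ± 0.18 (0.186; 0.23 in the GC-adjusted fit). Of 19 heme and iron genes 0 were positive and 1 negative, of 21 cell cycle genes 0 and 1, of 9 male-biased liver genes 1 and 2 and of 13 female-biased ones 1 and 1, beside 7.99% and 7.17% of all genes. Without vehicle replicate 1 the clock genes had 2 and 0 and the female-biased genes 3 and 1; in the GC-adjusted fit the clock genes had 1 and 1, the heme and iron genes 1 and 0, the cell cycle genes 0 and 0, the male-biased genes 0 and 2 and the female-biased genes 0 and 1. The male-biased steroid enzyme gene Hsd3b5 gave -4.53 ± 1.11 (0.0932) and Selenbp2 -1.60 ± 0.41 (0.102). Markers of cholangiocytes, the bile duct cells, had 3 of 5 genes negative with an unadjusted p below 0.05, beside 7.17% of all genes, Krt19 at -5.41 ± 1.18 (0.0781) and Epcam at -1.69 ± 0.58 (0.188). Krt19 was at 2.38, 25.8 and 13.9 CPM with TCDD in BXD-40/TyJ and at most 1.09 with vehicle, but also at 18.3 in 1 vehicle library of BXD91/2RwwJ. The 5 cholangiocyte markers summed to 23.9 to 50.8 CPM with vehicle and 28.8 to 62.7 with TCDD in BXD-40/TyJ, overlapping. Markers of the acinar cells of the pancreas, of which 8 of 9 were detected in some library, moved with Krt19: they summed to 1.63, 16.1 and 8.23 CPM in the TCDD libraries of BXD-40/TyJ, to 12.6 CPM in the same vehicle library of BXD91/2RwwJ and to at most 5.43 elsewhere. The 3 libraries highest in Krt19 were the 3 highest in these markers. The part of either marker list in any result was not tested. Of 10 Kupffer cell markers 3 were negative and 0 positive with an unadjusted p below 0.05, and 0 negative without vehicle replicate 1 or in the GC-adjusted fit. The summed Kupffer markers were lower with TCDD in BXD91/2RwwJ, at 423.3 to 735.2 CPM against 817.5 to 993.7, without overlap, and overlapped in the other lines. Erythroid markers there summed to 60.1 to 89.4 CPM with TCDD against 124.4 to 137.7, again without overlap, and overlapped in the other lines; the part of these sums in the results of that line was not tested. Of 8 hepatocyte markers tested 5 were positive and 3 negative, with a median difference of 0.036. With an unadjusted p below 0.05, 1 was positive and 0 negative, and 1 and 1 without vehicle replicate 1. The highest of the 8 was Apob at 0.85 ± 0.25 (0.127), and 0.39 in the GC-adjusted fit. In whole liver a change in the share of a cell type and a change in RNA per cell cannot be told apart.

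Within the lines the lists of changed genes were short. TCDD changed 10 of 14972 genes in BXD91/2RwwJ (0.0668%), 9 up and 1 down, and 8 in BXD100/RwwJ (0.0534%), all up (edgeR, adjusted p below 0.05). The 2 lines, which share no library, had 6 called genes in common, 60% of the first list and 75% of the second: Cyp1a1, Cyp1a2, Nptx1, Slc46a3, Htatip2 and Pcp4l1. In BXD91/2RwwJ the carboxylesterase gene Ces2c also rose, by 1.89 ± 0.33 (0.0216), and haptoglobin, Hp, fell by 1.03 on the log2 scale (0.0253), from 3070 to 3221 CPM to 1140 to 1686. The Ces2c call was kept in 14 and the Hp call in 13 of the 18 fits that each left out 1 library. In BXD100/RwwJ Gstp1 rose by 0.86 ± 0.16 (0.0425), a call lost without BXD-40/TyJ vehicle replicate 1 (0.0663). It was kept in 5 of the 18 fits that each left out 1 library. The Pcp4l1 call in BXD100/RwwJ was kept in 6 of those 18 fits. Families of Ces2 and Gstp genes share sequence, and their reads may be divided uncertainly.

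The direct comparison of BXD91/2RwwJ with BXD100/RwwJ gave 0 calls by edgeR of 14972 genes (0%), with 338 genes at an unadjusted p below 0.05, and 0 by DESeq2. The rise of Cyp1a1 was 1.07 ± 0.45 log2 units larger in BXD91/2RwwJ, with a 95% interval of 0.12 to 2.02 and an adjusted p of 1.00. Intervals for other called genes were -0.48 to 0.79 for Cyp1a2, -1.42 to 1.67 for Nptx1, -0.12 to 1.04 for Slc46a3 and -0.21 to 0.67 for Htatip2. These limits do not show that the lines respond alike.

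BXD-40/TyJ gave 18 calls of 14972 genes (0.120%), 11 up and 7 down, of which Cyp1a2 alone was also called in the other lines. Among the rises were Ccdc86, a nucleolar protein gene, at 1.33 ± 0.24 (adjusted p = 0.0408), the tRNA modification gene Kti12 at 0.91 ± 0.17 (0.0464) and Smg5, of nonsense-mediated decay, at 0.85 ± 0.15 (0.0409). Among the falls were Fam19a2 at -2.19 ± 0.42 (0.0464), Ppm1k, a phosphatase gene of branched-chain amino acid breakdown, at -1.39 ± 0.26 (0.0464) and the cationic amino acid transporter gene Slc7a2 at -1.31 ± 0.25 (0.0464). Slc7a2 was at 200.5, 242.1 and 221.6 CPM with TCDD against 646.7, 446.5 and 537.5. Ppm1k also passed in the difference in the GC-adjusted fit (1.20, 0.0218). Without vehicle replicate 1 edgeR called 0 genes in this line, with 1849 at an unadjusted p below 0.05 (Slc7a2 -1.19, 0.235), and the GC-adjusted fit called 1, Cyp1a2. DESeq2 called 507 with all libraries. The median change in this line was -0.29 in the third of genes lowest in GC content and 0.17 in the third highest, against 0.03 and -0.01 in BXD100/RwwJ; their part in the calls of this line beyond that fit was not tested.

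The 3 lines were set beside the other 11 strains of the study, whose count files differ in kind from those of the BXD lines. The ratio of mean CPM, TCDD over vehicle, ran from 0.806 to 3406 for Cyp1a1 in those strains: 2 lay above the 1117 of BXD100/RwwJ and 3 below the 2.58 of BXD-40/TyJ. The highest was C57BL6/J, where TCDD libraries held 1604, 1393 and, in the library labelled replicate 3, 1.21 CPM; without that library its ratio was 5108. For Slc46a3 the ratios of 4.07 and 3.00 in BXD91/2RwwJ and BXD100/RwwJ lay above all 11, at 0.656 to 1.99, or to 2.65 without C57BL6/J TCDD replicate 3, which held 21.4 CPM against 161.9 and 172.9. In BXD-40/TyJ the ratios of 2.94 for Cyp1a2, 1.19 for Slc46a3 and 1.32 for Htatip2 lay within the range. Of the 11 strains 4, 4 and 5 lay below them. Its ratio of 0.653 for Nptx1 lay below all 11, the lowest of which was 0.838. In that line the ratio of 0.412 for Cd36 lay below all 11, at 0.634 to 4.07. Those of 3.25 for Sdf2l1 and 1.85 for H2afx lay above all 11, at 0.667 to 1.82 and 0.721 to 1.35. These placements are descriptions with no test.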

How the data were processed

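Liver RNA-seq of 18 libraries from 3 lines, 3 per line and treatment, was analysed from whole-number counts per gene as deposited by the authors. The submitters' processing notes name FastQC 0.11.5, Trimmomatic 0.38, Bowtie2 2.3.2.25, HTSeq 0.6.1, DESeq2 (given there as 3.8) and build mm9; how each was set is not given in the sources used here. The kit named in the labels does not mark strand, so genes overlapping on opposite strands cannot be told apart. Of the counted reads, 50.0% to 52.6% fell in no gene, 0.730% to 1.12% were ambiguous and 3.74% to 4.35% aligned more than once; these were left out.

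Of 37310 gene IDs 32620 were named from the reference tables. Tests used R 4.3.3 and edgeR 4.0.16 (TMM factors 0.918 to 1.10, filterByExpr, robust quasi-likelihood fit of 6 groups with 12 residual degrees of freedom, Benjamini-Hochberg adjusted p below 0.05 over 14972 genes), checked on simulated counts. CPM divide by the gene counts of the library, with no TMM factor. SEs follow from the test statistic. The chi-square per degree of freedom between 2 libraries of a group was 12.8 to 71.9, above counting error, so none was merged with another as a repeat deposit; this does not show that they are separate mice. The GC-adjusted fit took out, per library, splines of 4 degrees of freedom on GC and log length of each gene's longest transcript in another build (GRCm38). Alternatives were DESeq2 1.42.0, size factors by median ratio, all genes with no filter, no robust estimation, all 84 libraries, the GC-adjusted fit, BXD-40/TyJ vehicle replicate 1 left out, both, and each of 18 libraries left out; leaving out C57BL6/J TCDD replicate 3 was chosen after seeing the data. The authors' own table of fold changes was not used here.

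The comparison, gene lists and tests were chosen with earlier results of these data known. The text names called genes (predicted and Riken clones passed over), tested genes of the 3 AHR and TCDD lists, the 2 smallest p of other lists, and, per line, the 5 largest called rises and falls; not every gene so chosen is reported here, and those named outside the rule are marked. Marker lists were summed per library.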

Additional observations from a re-analysis of the deposited data

Results flagged for a closer look

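The change with TCDD differed between the lines by a test of the difference itself, the contrast of BXD91/2RwwJ and BXD100/RwwJ with BXD-40/TyJ (edgeR, adjusted p below 0.05), for 9 genes. On the log2 scale the difference was 9.36 for Cyp1a1, 2.51 for Cyp1a2, 1.62 for Cd36, 4.71 for Nptx1, 1.60 for Slc46a3 and 1.09 for Htatip2. It was -1.28 for H2afx, -2.46 for Sdf2l1 and -1.44 for A730015C16Rik. Cyp1a1, Cyp1a2, Nptx1 and Slc46a3 were called in all 18 fits that left out a library and under all 7 other settings. Cd36 was called in 18 and 4, Htatip2 in 10 and 6, H2afx in 14 and 5, Sdf2l1 in 10 and 5, and A730015C16Rik in 7 and 5.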

How the results depend on the processing

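The difference between lines gave 9 calls; it gave 20 with median-ratio scaling, 62 with no low-count filter, 40 with all 84 libraries, 5 without BXD-40/TyJ vehicle replicate 1 in the GC-adjusted fit and 370 with DESeq2, most of them lower. Leaving out 1 library gave 5 to 259 calls: 259 without BXD100/RwwJ TCDD replicate 3, 89 higher and a larger number lower without BXD-40/TyJ TCDD replicate 2, 44 without BXD91/2RwwJ vehicle replicate 2, 24 without BXD100/RwwJ vehicle replicate 3, 15 without BXD91/2RwwJ vehicle replicate 1 and 5 without BXD-40/TyJ TCDD replicate 3. BXD91/2RwwJ against BXD100/RwwJ gave 1 call with all 84 libraries and 0 in each left-out fit. Within BXD91/2RwwJ the 10 calls became 19 in the GC-adjusted fit, 20 in that fit without vehicle replicate 1, 31 with DESeq2 and 6 to 17 with a library left out. Within BXD100/RwwJ the 8 became 5 with all 84 libraries, 14 with DESeq2 and 5 to 9 with a library left out. Within BXD-40/TyJ the 18 became 80 with no filter, 38 with all 84 libraries, 1 in the GC-adjusted fit, 0 in that fit without vehicle replicate 1 (1288 at an unadjusted p below 0.05), 507 with DESeq2 and 0 to 219 with a library left out: 0 without its vehicle replicate 1 or TCDD replicate 3, and 219 without its TCDD replicate 2. The cause was not tested. Of 1722 values of 69 named genes in the difference, 1564 kept direction and side of the threshold, 41 lost the call, 89 gained it and 28 changed sign, all of genes not called. In the GC-adjusted fit the sign changed for Gadd45b (0.17), Neurl3 (0.091) and Hp (0.058), and without vehicle replicate 1 in that fit for Ahr (-0.059), Gadd45b (0.25) and Neurl3 (0.21). With a library left out, Ugt1a7c ran from -2.27 to 0.38, Hsp90ab1 from -0.041 to 0.10, Fgf21 from -0.34 to 1.55, Gadd45b from -0.25 to 0.51 and Neurl3 from -0.28 to 0.087. No paired analysis was possible because replicate numbers follow the order of deposit and pair no samples. Libraries of 13074091 to 17970601 counts limit genes of a few CPM, such as Cyp1b1.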
